A study of Mus musculus with 30 samples.

Results

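The response to interferon gamma (IFNγ) was compared between the mouse cell lines B16F10, a melanoma line, and 6694c2, a pancreatic ductal adenocarcinoma (PDAC) line. The question behind the comparison was how the tumor cells themselves respond to the cytokine in culture. For each gene, the effect of IFNγ in 6694c2 cells was subtracted from its effect in B16F10 cells, so that a positive log2 difference marks a gene that moved up more, or down less, in B16F10. The comparison used 12 bulk RNA-seq libraries of the 30 samples of the series, 3 in each of 4 groups: B16F10 with vehicle, B16F10 with IFNγ, 6694c2 with vehicle and 6694c2 with IFNγ. IFNγ was given at 100 ng/mL for 24 h. The 6694c2 line is a single clone from a Pdx-cre mouse model of PDAC with p53+/floxed and YFP alleles, and each line stands for 1 tumor. Line, tumor type and genotype therefore cannot be told apart. Of 49315 genes counted, the 18974 with at least 10 reads over the 12 libraries were tested. Among them, 2044 had a mean level over 10 times higher in B16F10 and 1712 over 10 times higher in 6694c2. For these 3756 line-restricted genes, an effect in the line that hardly expresses them rests on few reads. Only some are marked as such below, in the text or by an asterisk in figures. Those without a mark in the text include Rsad2, Dhx58, Mx1, Ifit1bl1, Casp1, Cfb, the gene C2, Ido1, Cdkn1a and Etv4. The other 15218 genes were within a factor of 10.

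IFNγ binds a receptor made of Ifngr1 and Ifngr2 chains, and the kinases Jak1 and Jak2 attached to them start the signal. Promoters with GAS elements then switch on a first set of genes, among them the transcription factor Irf1 and the feedback inhibitors Socs1 and Socs3. The ISGF3 complex, which contains Stat2 and Irf9, binds ISRE elements of antiviral genes and is the main route of type I interferon. Tumor cells that see IFNγ are known to raise antigen presentation, PD-L1 and chemokines, and to slow their growth or die in some settings.

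Library depth was 17450954 to 31844655 reads on genes. Replicates of a group correlated at r = 0.9943 to 0.9972 across genes and differed by more than sampling noise, so each was counted as its own replicate. The labels do not say whether replicates were separate cultures, so p-values measure the spread between these libraries, which may be technical. In bulk RNA, a larger share of responding cells and more RNA per cell cannot be told apart. The 12 melanocyte markers were high in B16F10, with a summed level of 15727 to 20373 CPM (counts scaled to the size of each library), and the 12 ductal markers in 6694c2, with 14101 to 15492 CPM, although Epcam was at only 3.46 CPM and Cldn4 at 0.254 CPM in vehicle-treated 6694c2 cells. Traces of each line's markers were present in the other. Melanocyte markers stood at 0.502 to 0.522% of the B16F10 mean in the 6694c2 vehicle libraries and at 0.224 to 0.772% in the 6694c2 IFNγ libraries, whereas ductal markers in B16F10 stood at 0.106 to 0.293% of the 6694c2 mean. Lymphoid and myeloid markers summed to 22 to 52.8 CPM in every library, with Ptprc, Cd79a, Ighm and Igkc above 0, while Cd3e, Cd3g, Itgax and Nkg7 did not reach the read minimum.

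Each line was first compared with its own vehicle. In B16F10 1971 genes rose (10.4% of those tested) and 2481 fell (13.1%), of which 653 and 149 changed over 2-fold. In 6694c2 1752 rose (9.23%) and 1173 fell (6.18%), with 505 and 121 over 2-fold. The effect itself differed between the lines for 2146 genes at an adjusted p under 0.05 with edgeR's quasi-likelihood test, 761 of them higher in B16F10 (4.01%) and 1385 lower (7.30%). A difference of more than 1 on the log2 scale was called for 422 genes, 214 higher and 208 lower. Line-restricted genes gave 233 of the calls, and without them 647 genes were higher and 1266 lower, or 131 and 132 beyond 1 on the log2 scale.

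The balance of the directions for small differences depended on the scaling of the libraries. TMM scaling uses 1 library as its reference, and with each of the 12 libraries in turn as reference the calls ran from 761 to 1069 higher and from 992 to 1385 lower. DESeq2 gave 959 higher and 1220 lower, and scaling by library size alone gave 975 and 1051. The share of calls that were higher ran from 35.5 to 51.9% over the 12 references and reached 53.4% in the fit without 6694c2 vehicle replicate 3. Over 34 alternative fits the median log2 difference of genes that average at least 1 CPM stayed between -0.05 and 0.033. The count of called genes beyond 1 on the log2 scale ran from 378 to 485.

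**Figure D1:**
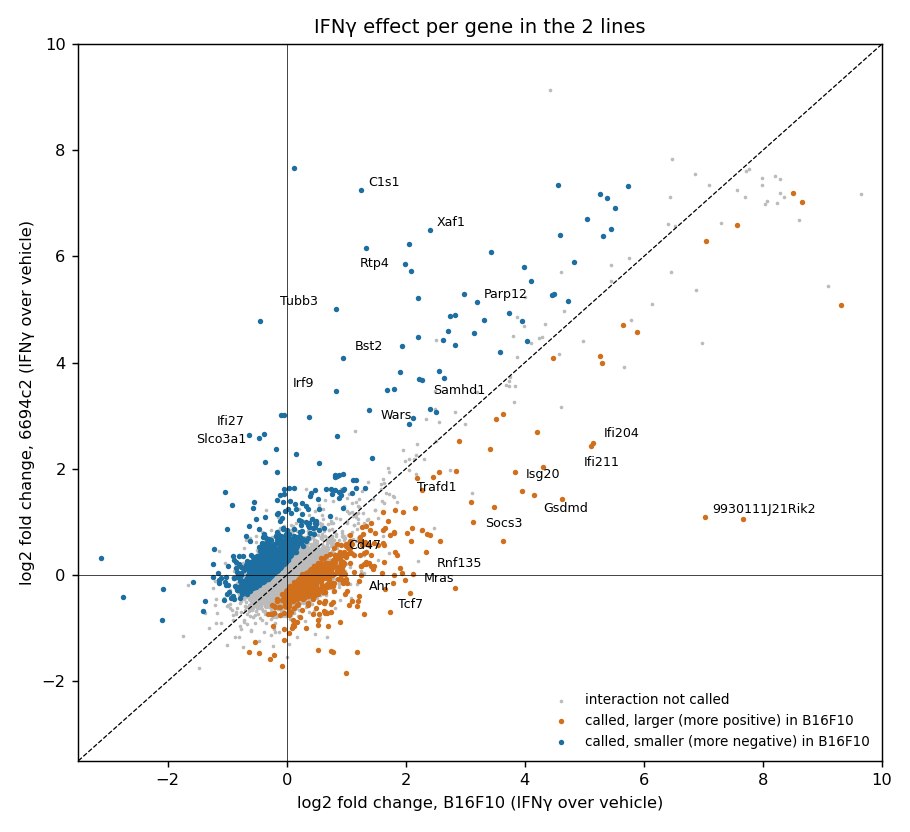
IFNγ effect in B16F10 (x axis) against the effect in 6694c2 (y axis), as log2 fold change over vehicle, for the 10436 genes that are not line-restricted and average at least 1 CPM. Colored points are the 622 genes called higher and the 1251 called lower in B16F10, and the diagonal marks an equal effect.

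The strong differences took several forms. Of the 132 genes beyond 1 on the log2 scale in the direction of 6694c2, 52 rose in both lines, 35 rose only in 6694c2, 17 rose in 6694c2 and fell in B16F10, and 21 fell only in B16F10. In the direction of B16F10, 34 of 131 rose in both lines, 57 rose only in B16F10 and 13 rose in B16F10 while falling in 6694c2. "Only" here refers to the calls in each line beside a called difference. The 52 genes that rose in both lines but more in 6694c2 had a median induction of 2.33 on the log2 scale in B16F10 and of 4.84 in 6694c2, and 45 of them were already higher in B16F10 with vehicle. With IFNγ their median level was 0.93 higher in B16F10 on the log2 scale, against 2.69 higher with vehicle. The 34 genes that rose more in B16F10 showed the opposite starting point, with 21 lower and 3 higher in B16F10 with vehicle. For comparison, 6461 of all 18974 genes tested were called higher and 5818 lower in B16F10 with vehicle. These levels and the differences come from the same libraries, so the pattern is a description.

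Irf9, the DNA-binding subunit of ISGF3, went from 43.2, 42.6 and 44.9 to 79.8, 75.7 and 76.6 CPM in B16F10, and from 4.86, 4.89 and 5.27 to 53.6, 55.1 and 57.7 CPM in 6694c2. B16F10 was the higher line in every library, before and after IFNγ. Irf9 rose 1.78-fold in B16F10 and 11.1-fold in 6694c2, a log2 difference of -2.64 ± 0.11 (SE, n = 3 per group, edgeR adjusted p = 2.08e-15).

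Antiviral and other interferon-stimulated genes moved in the same direction. Xaf1, an antagonist of the apoptosis inhibitor XIAP, went from 27.6, 25.7 and 29.8 to 149, 145 and 144 CPM in B16F10, and from 1.77, 1.92 and 0.959 to 151, 132 and 143 CPM in 6694c2. The lines were thus far apart with vehicle and overlapped with IFNγ, where the log2 difference in level was 0.04 (adjusted p = 0.665). Its difference in effect was -4.10 ± 0.16 (adjusted p = 5.86e-16). Bst2, the tetherin that holds budding virus at the cell surface, went from 200, 194 and 209 to 773, 754 and 764 CPM in B16F10 and from 7.49, 9.73 and 8.81 to 180, 153 and 184 CPM in 6694c2. B16F10 kept the higher level in every library, and the difference in effect was -2.38 ± 0.11 (adjusted p = 9.99e-15). Rtp4, an interferon-stimulated regulator of antiviral responses, rose 4.22-fold in B16F10 and 53.1-fold in 6694c2. Ifi27 went from 276, 278 and 297 CPM down to 225, 217 and 209 CPM in B16F10, whereas in 6694c2 it went from 6.92, 10.9 and 8.75 up to 55.5, 52.8 and 58.4 CPM. It fell in B16F10 and rose in 6694c2, a difference of -3.03 ± 0.12 (adjusted p = 1.06e-15).

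Other genes with the smallest p in this direction had roles outside antiviral defense. Tubb3, the beta tubulin typical of neurons, stood at 221, 223 and 217 CPM in B16F10 with vehicle and at 399, 373 and 394 CPM with IFNγ, and in 6694c2 at 6.75, 5.11 and 5.21 and then at 188, 168 and 194 CPM. IFNγ raised it 1.76-fold in B16F10 and 32.2-fold in 6694c2, the smallest p of all named genes, at a difference of -4.19 ± 0.11 (adjusted p = 9.29e-20). Wars, the tryptophanyl-tRNA synthetase, rose 2.63-fold against 8.57-fold and reached 1216, 1143 and 1122 CPM in 6694c2, above the 501, 521 and 479 CPM of B16F10 with IFNγ. Samhd1, which degrades the nucleotides needed for DNA synthesis, began at 65.7 to 67.3 CPM in B16F10 and 47.2 to 49.4 CPM in 6694c2, and reached 312 to 329 and 606 to 638 CPM, a difference of -1.41 ± 0.08 (adjusted p = 6.25e-13). Slco3a1, an organic anion transporter, rose 5.22-fold in 6694c2 and did not pass the threshold in B16F10, where its log2 fold change was -0.18. Parp12, an ADP-ribosyltransferase, rose 9.15-fold and 35.3-fold. C1s1, a protease of the first complement component, differed by -6.00 ± 0.27 (adjusted p = 8.56e-15), but its 6694c2 vehicle libraries held only 0.12 to 0.385 CPM, and reads may be shared with its paralog.

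The genes that rose more in B16F10 included DNA sensors, a signal inhibitor and a pore protein. Ifi211 belongs to the Ifi200 (PYHIN) family of nuclear DNA-binding proteins. Its level went from 1.61, 2.41 and 2.96 to 83.4, 76.5 and 84.7 CPM in B16F10, and from 17.2, 16.5 and 17.4 to 94, 91 and 89.2 CPM in 6694c2. The lines differed with vehicle and came within a log2 difference of -0.16 (adjusted p = 0.0577) with IFNγ, after a rise of 34.4-fold in B16F10 and 5.36-fold in 6694c2, a difference in effect of 2.68 ± 0.15 (adjusted p = 6.25e-13). Ifi204, of the same family, rose 35.4-fold and 5.62-fold. Socs3, an inhibitor of JAK kinases, went from 4.27, 5.27 and 3.68 to 51.8, 47.6 and 48.1 CPM in B16F10, and from 35.6, 34.3 and 38.1 to 83, 82.1 and 96.1 CPM in 6694c2. Its level with IFNγ stayed below that of 6694c2, although its rise was 11.1-fold against 2.43-fold, a difference of 2.20 ± 0.14 (adjusted p = 5.64e-12).

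Cd47, the surface signal that restrains phagocytosis, went from 27.2, 26.8 and 26.4 to 95.5, 95.9 and 91.7 CPM in B16F10 and from 171, 182 and 191 to 246, 243 and 242 CPM in 6694c2. It rose in both lines, 3.52-fold and 1.35-fold, and 6694c2 kept the higher level throughout (difference in effect 1.39 ± 0.08, adjusted p = 2.97e-12). Gsdmd, the pore-forming protein of pyroptosis, went from 1.42, 1.06 and 1.16 to 20.5, 26.5 and 18.3 CPM in B16F10, and from 54, 60.1 and 57.3 to 169, 156 and 162 CPM in 6694c2. Even induced B16F10 cells were thus below vehicle-treated 6694c2 cells, while the difference in effect was 2.66 ± 0.19 (adjusted p = 7.28e-11). Isg20, an exonuclease with antiviral activity, rose 15.5-fold in B16F10 and 2.98-fold in 6694c2. Its induced level of 39.3 to 44.7 CPM in B16F10 overlapped the vehicle level of 35.4 to 46.6 CPM in 6694c2.

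Mras and Ahr were called in B16F10 and not in 6694c2. Mras, a Ras-related GTPase, stood at 14, 13.2 and 15.5 CPM with vehicle and 65.9, 60.1 and 60 CPM with IFNγ in B16F10, against 11.7, 12.7 and 12.2 and then 11.1, 11.8 and 13.7 CPM in 6694c2. Only the B16F10 groups were apart, and the difference in effect was 2.11 ± 0.14 (adjusted p = 7.77e-12). Ahr, the aryl hydrocarbon receptor, rose 3.82-fold in B16F10 to 24.5 to 26.3 CPM and was at 30.1 to 39.3 CPM in 6694c2 with or without IFNγ, a difference of 1.90 ± 0.14 (adjusted p = 2.24e-10). Rnf135, a ubiquitin ligase of the RIG-I pathway, began at 8.92 to 11.2 and 10.5 to 10.8 CPM and reached 51.4 to 53.2 CPM in B16F10 but 13.2 to 15.7 CPM in 6694c2. Trafd1, a feedback inhibitor of innate signaling, rose 8.53-fold and 2.58-fold. Tcf7, a transcription factor of the Wnt pathway, rose 3.34-fold in B16F10 and fell in 6694c2, from 28.9, 31.1 and 29.5 to 20.3, 18.4 and 17 CPM. The IFNγ-treated lines then overlapped, with 21, 18.1 and 20.1 CPM in B16F10. 9930111J21Rik2, an immunity-related GTPase gene, went from 0, 0.0818 and 0.12 to 10, 10.2 and 9.6 CPM in B16F10 and from 7.32, 6.59 and 5.75 to 15.1, 14.9 and 12.4 CPM in 6694c2, but it has a close copy, so its reads are uncertain.

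**Figure D2:**
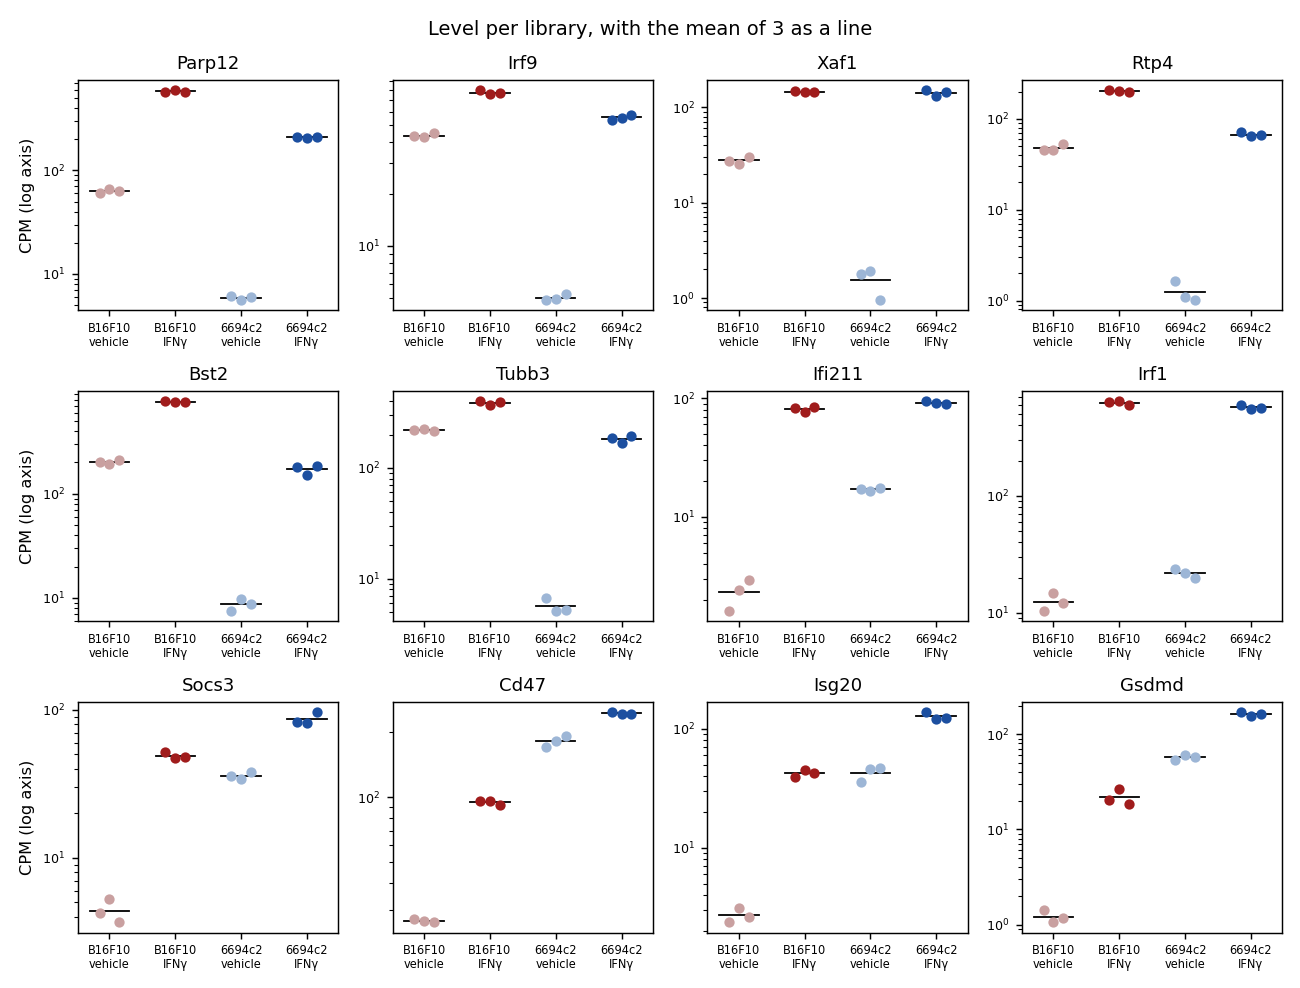
Level of 12 genes in each of the 12 libraries, in CPM on a log axis that differs between panels, with points for libraries and a line for the mean of 3 libraries per group. Parp12, Irf9, Xaf1, Rtp4, Bst2 and Tubb3 start lower in 6694c2 and rise more there, whereas Ifi211, Irf1, Socs3, Cd47, Isg20 and Gsdmd start lower in B16F10 and rise more there.

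The promoters of 4 of these genes are shown because they carry GAS or ISRE elements and because the genes differ in opposite directions. Each window runs from 250 bases before the RefSeq transcription start to 50 bases after it, on GRCm38.p6, and is written 5′ to 3′ on the strand of the gene. Capitals mark GAS elements, searched as TTCNNNGAA, and ISRE elements, searched as GAAANNGAAA on both strands. The Irf1 window, the upstream of its 2 start sites, lies at chr11:53769764-53770063 on the plus strand, the Socs3 window at chr11:117969317-117969616 on the minus strand, the Ifi211 window at chr1:173912997-173913296 on the minus strand and the Bst2 window at chr8:71537423-71537722 on the minus strand.
Irf1: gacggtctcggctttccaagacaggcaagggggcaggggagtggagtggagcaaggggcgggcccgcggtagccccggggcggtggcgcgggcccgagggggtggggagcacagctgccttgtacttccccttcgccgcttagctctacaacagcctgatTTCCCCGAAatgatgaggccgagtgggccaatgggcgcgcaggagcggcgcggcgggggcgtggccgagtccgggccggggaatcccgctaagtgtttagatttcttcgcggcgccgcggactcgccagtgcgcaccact
Socs3: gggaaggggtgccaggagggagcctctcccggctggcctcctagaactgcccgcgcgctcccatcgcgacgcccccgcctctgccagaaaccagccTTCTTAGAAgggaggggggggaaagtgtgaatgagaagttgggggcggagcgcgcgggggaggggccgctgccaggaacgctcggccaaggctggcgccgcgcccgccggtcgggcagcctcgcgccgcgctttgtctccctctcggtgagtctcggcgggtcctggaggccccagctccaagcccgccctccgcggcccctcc
Ifi211: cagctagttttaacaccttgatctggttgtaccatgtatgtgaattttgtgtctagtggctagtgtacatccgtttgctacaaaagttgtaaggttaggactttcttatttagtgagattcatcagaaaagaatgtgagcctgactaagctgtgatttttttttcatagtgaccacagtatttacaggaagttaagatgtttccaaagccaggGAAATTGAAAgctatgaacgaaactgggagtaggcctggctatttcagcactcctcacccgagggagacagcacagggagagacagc
Bst2: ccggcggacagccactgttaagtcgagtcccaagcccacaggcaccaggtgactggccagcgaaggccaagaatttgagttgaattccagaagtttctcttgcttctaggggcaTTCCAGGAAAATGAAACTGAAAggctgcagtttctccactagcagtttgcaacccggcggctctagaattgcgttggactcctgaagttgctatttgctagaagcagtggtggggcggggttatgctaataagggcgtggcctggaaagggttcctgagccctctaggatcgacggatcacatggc

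The GAS match of Irf1 began 90 bases before the start site and that of Socs3 154 bases before it. Ifi211 held an ISRE match 37 bases before the start, and Bst2 held a GAS match at 136 bases and overlapping ISRE matches at 130 and 124 bases. Of 32851 windows of the same length, 8.3% held a GAS match and 3.44% an ISRE match, and 149 held both. Counted per gene, with a match in any window of the gene, 8.41% of the 12414 genes tested that had a window held GAS and 3.83% ISRE. Among genes raised over 2-fold in both lines, 28 with a larger effect in B16F10 had a window, and 28.6% of them held GAS and 46.4% ISRE. Of 46 such genes with a larger effect in 6694c2, 23.9% held GAS and 39.1% ISRE, and of 102 without a called difference 19.6% and 35.3% did. These are descriptions of letters in short windows, not of binding. Of the 24 genes with the smallest p, 16 had a window, while among the others Ifi204, Gsdmd, Ahr, Ifi27, Rtp4, Wars and Slco3a1 had none. Most of those 16 held neither element. Of the 9 that were higher in B16F10, 22.2% held GAS and 11.1% ISRE, and of the 7 that were lower 28.6% and 14.3% did.

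The IFNγ pathway itself was followed from receptor to feedback. Of 16 pathway genes, 3 were higher and 6 lower, with a median log2 difference of -0.15 against -0.04 for all genes tested. For this and the later lists, the shares over all genes tested were 4.01% higher and 7.30% lower. Ifngr1, the ligand-binding chain, was at 15.7 CPM in B16F10 and 124 CPM in 6694c2 with vehicle and did not pass the threshold in either line, with a difference in effect of 0.03 ± 0.10 (adjusted p = 0.942). Ifngr2, the second chain, fell in both lines, by 0.51 and by 0.35 on the log2 scale. Jak1 rose in B16F10, from 136 to 230 CPM, with a log2 fold change of 0.76 against 0.13 in 6694c2 (difference 0.63 ± 0.09, adjusted p = 8.69e-06). Jak2 rose in both lines, from 25.7 to 51.2 and from 89.7 to 135 CPM, and its difference of 0.40 ± 0.11 (adjusted p = 0.0137) was lost without B16F10 IFNγ replicate 2. Stat2 and Stat3 rose in both lines by similar amounts, with differences of 0.18 ± 0.17 (adjusted p = 0.6) and -0.13 ± 0.09 (adjusted p = 0.447). Socs1, the main feedback inhibitor of Jak2, rose by 4.66 and 4.98 on the log2 scale (difference -0.32 ± 0.26, adjusted p = 0.532), so the difference seen for Socs3 was not shown for Socs1. Cish, another inhibitor of that family, went the opposite way to Socs3. It fell from 2.8, 3.07 and 3.16 to 2.31, 1.75 and 1.97 CPM in B16F10 and rose from 4.35, 3.85 and 3.12 to 9.77, 7.84 and 9.58 CPM in 6694c2 (difference -1.84 ± 0.25, adjusted p = 5.63e-06). Usp18, a brake of type I interferon receptors and restricted to B16F10 by level, differed by -1.51 ± 0.21 (adjusted p = 8.20e-06).

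Among the 8 interferon regulatory factors, 2 were higher and 2 lower, with Irf5 lost from the higher ones without 6694c2 vehicle replicate 3 or 6694c2 IFNγ replicate 3. Irf1, an early transcription factor of the IFNγ response, went from 10.4, 14.7 and 12.2 to 633, 641 and 601 CPM in B16F10 and from 23.6, 21.8 and 20 to 592, 554 and 567 CPM in 6694c2. It started lower and ended higher in B16F10, with 50.1-fold against 26.2-fold and a difference of 0.94 ± 0.12 (adjusted p = 2.00e-06). Irf7 and Irf8 responded in 6694c2. Irf7, the amplifier of type I interferon responses, went from 0.933 to 76.6 CPM there and from 0.93 to 1.46 CPM in B16F10 (difference -5.73 ± 0.48, adjusted p = 1.55e-09), and Irf8 from 1.87 to 32.9 and from 1.21 to 1.7 CPM (difference -3.71 ± 0.36, adjusted p = 2.26e-08). Neither passed the threshold in B16F10. The vehicle levels of both were near 1 CPM in each line, so their marking as 6694c2-restricted rests on the IFNγ libraries. Irf2 rose in both lines by 1.48 and 1.23, with a difference of 0.24 ± 0.11 (adjusted p = 0.182).

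The ISGF3-type antiviral genes, whose control by ISGF3 was not tested here, were the list with the most calls. Of 39 measured members, 24 were lower and 7 higher, with a median difference of -0.93, and 36 rose in B16F10 and 37 in 6694c2. Of the 24 members that are not line-restricted, 18 were lower and 2 higher. With vehicle, 33 of the 39 were higher in B16F10 and 4 lower, and with IFNγ 32 were higher and 6 lower. Of all 18974 genes tested, 6461 were higher in B16F10 and 5818 lower with vehicle, and 6446 and 6136 with IFNγ. The median level was 3.30 higher in B16F10 on the log2 scale with vehicle and 1.82 higher with IFNγ. Isg15, a ubiquitin-like modifier, went from 49.5 to 348 CPM in B16F10 and from 1.85 to 55.3 CPM in 6694c2 (difference -2.08 ± 0.18, adjusted p = 3.62e-09). Oas1a, which makes the activator of RNase L, went from 22.4 to 104 and from 0.668 to 24.9 CPM (difference -3.00 ± 0.21, adjusted p = 7.28e-11), and Ddx58, the RNA sensor RIG-I, from 73.4 to 255 and from 7.45 to 85.3 CPM (difference -1.72 ± 0.11, adjusted p = 6.83e-12). B16F10 thus had the higher level of these 3 genes before and after IFNγ, and the smaller fold change.

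A smaller group of antiviral genes rose more in B16F10. Rsad2 (viperin), not called in 6694c2, went from 110 to 912 CPM in B16F10 and from 3.91 to 5.82 CPM in 6694c2, a difference of 2.56 ± 0.27 (adjusted p = 1.07e-07), and Dhx58, a regulator of RIG-I, from 12.6 to 170 and from 0.712 to 2.08 CPM (difference 2.21 ± 0.37, adjusted p = 1.26e-04). Mx1, an antiviral GTPase, went from 1.97 to 48.1 and from 0.352 to 1.6 CPM, but its call was lost without 6694c2 vehicle replicate 3. With IFNγ, the 6694c2 level was 0.638% of the B16F10 level for Rsad2, 1.23% for Dhx58 and 3.32% for Mx1. Melanocyte markers stood at 0.224 to 0.772% in the same libraries, and the part of such traces in these low levels was not tested. Ifit1bl1 was the reverse, at 0.265 and 31.7 CPM in 6694c2 and 0.292 and 0.568 CPM in B16F10. Ifit3, Ifit3b, Samd9l and Trim25 rose in both lines with differences between -0.12 and 0.14 that were not called, although Ifit3 and Ifit3b are close copies with uncertain reads.

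**Figure D3:**
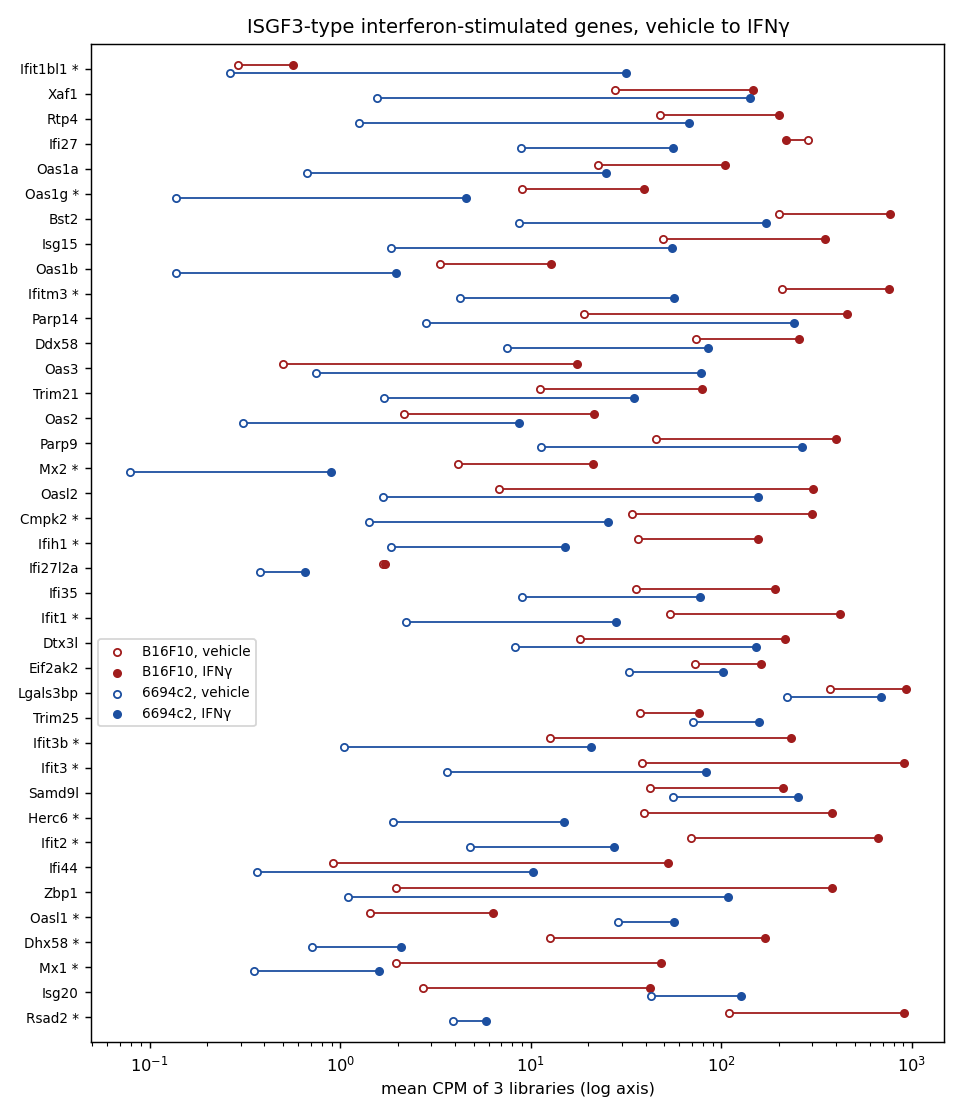
Mean level of the 39 ISGF3-type genes in CPM on a log axis, with a line from vehicle to IFNγ for each line and an asterisk on line-restricted genes. Vehicle points of B16F10 lie to the right of those of 6694c2 for most genes, and for many genes the points of the 2 lines lie closer together with IFNγ. They lie farther apart with IFNγ in others, among them Rsad2, Dhx58, Mx1, Zbp1, Oas3 and Ifit1bl1.

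The GTPases of cell-autonomous defense rose in both lines. Guanylate-binding proteins attack vacuoles of intracellular microbes, and 10 of 11 rose in B16F10 and 11 in 6694c2. Only Gbp7 (-2.78 ± 0.18, adjusted p = 7.51e-12) and Gbp3 (-1.71 ± 0.14, adjusted p = 8.82e-10) were called lower. With IFNγ, Gbp7 was at 143 CPM in B16F10 and 457 CPM in 6694c2, and Gbp3 at 710 and 725 CPM. Gbp8 was called higher, but it had no read in the B16F10 vehicle libraries and its call was lost in 8 of the 34 alternative fits, those without B16F10 vehicle replicates 1, 2 or 3, B16F10 IFNγ replicates 1 or 2, 6694c2 vehicle replicate 2 or 6694c2 IFNγ replicate 3 among them. Gbp2, the most abundant, went from 18.2 to 4024 CPM in B16F10 and from 30.8 to 6168 CPM in 6694c2, a difference of 0.13 ± 0.25 (adjusted p = 0.846). Its vehicle level was 0.453 and 0.5% of its IFNγ level, in the range of the traces that melanocyte markers left in 6694c2. In all, 96 of the genes that rose in B16F10 and 75 of those in 6694c2 had a vehicle level under 1% of the IFNγ level, and the part of traces between libraries in these was not tested.

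The 12 immunity-related GTPases rose in both lines, 4 of them more in B16F10 and 2 more in 6694c2. DESeq2 and a robust fit gave 2 more in B16F10, and the count more in 6694c2 was 1 without 6694c2 vehicle replicate 3, where Irgm1 was lost. Irgm2 differed by -1.40 ± 0.20 (adjusted p = 1.73e-05), from 17.4 to 800 CPM in B16F10 and from 2.71 to 331 CPM in 6694c2. Igtp and Iigp1 were among the most induced genes of both lines, to 2407 and 1249 CPM and to 2783 and 2894 CPM, with differences of -0.25 ± 0.22 (adjusted p = 0.555) and 0.52 ± 0.34 (adjusted p = 0.415). Tgtp1 was called higher in B16F10 (1.32 ± 0.33, adjusted p = 0.00741), and its near-identical copy Tgtp2 was not (1.23 ± 0.41, adjusted p = 0.0526), so both are uncertain. Tgtp1 was lost with DESeq2 and the robust fit, and the call of Gm12185 (1.63) was lost with these, with limma-voom and without 6694c2 vehicle replicates 1 or 2. The Ifi200 family, set apart after its values were seen, lies at chr1:173350879-174031810. Of 13 members tested, 9 rose in both lines, Ifi211 and Ifi204 were higher and Ifi203 was lower (-0.82 ± 0.19, adjusted p = 0.00336). Members of this cluster share sequence, and reads may have been split among them.

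Antigen presentation by MHC class I rose in both lines, in 19 of 24 genes in B16F10 and 21 in 6694c2, and differed for 10, 4 higher and 6 lower. The peptide transporter subunit Tap1 went from 6.88 to 266 CPM in B16F10 and from 2.65 to 383 CPM in 6694c2 (difference -1.91 ± 0.17, adjusted p = 4.10e-09). The light chain B2m went from 351 to 2211 and from 88.8 to 1156 CPM (difference -1.05 ± 0.10, adjusted p = 1.24e-08). Psmb8, an immunoproteasome subunit, reached 11 CPM in B16F10 and 107 CPM in 6694c2 from 1.01 and 1.56 CPM (difference -2.66 ± 0.34, adjusted p = 2.30e-06). The heavy chains went the other way or did not differ. H2-K1 went from 10.8 to 116 CPM in B16F10 and from 142 to 741 CPM in 6694c2 (difference 1.03 ± 0.16, adjusted p = 3.69e-05), so that 6694c2 had more before and after. H2-T23 differed by 1.14 ± 0.14 (adjusted p = 1.77e-06) and H2-D1 by -0.06 ± 0.09 (adjusted p = 0.794). Class I genes are alike in sequence, which makes their single values uncertain. Nlrc5, the transactivator of the class, rose by 6.48 and 7.84 on the log2 scale without a called difference (-1.36 ± 0.66, adjusted p = 0.223).

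Of 14 class II genes, 8 rose in B16F10 and 7 in 6694c2, and 1 was higher and 3 lower. The higher one, H2-DMb2 (1.37), was lost in 8 of 34 alternative fits, among them those without B16F10 vehicle replicate 1, B16F10 IFNγ replicates 2 or 3, 6694c2 vehicle replicate 3 or 6694c2 IFNγ replicates 2 or 3. Ciita, the master regulator of the class, rose from 0.601 to 9.93 CPM and from 0.908 to 23.1 CPM (difference -0.70 ± 0.42, adjusted p = 0.348). H2-DMb1, which helps to load peptides, went from 1.76 to 7.4 CPM in B16F10 and from 0.347 to 26.4 CPM in 6694c2 (difference -4.19 ± 0.36, adjusted p = 3.18e-09). Ifi30, a lysosomal thiol reductase, fell in B16F10 and did not pass the threshold in 6694c2 (difference -0.55 ± 0.11, adjusted p = 0.00137). The peptide-binding chains were low. H2-Aa went from 6.77 to 11.7 and from 10.4 to 17.1 CPM with a difference of 0.02 ± 0.32. B-cell genes were also present at low levels. Among the 12 lymphoid and myeloid markers measured, 3 were called higher in the comparison, all of them B-cell genes. Igkc was called in every alternative fit, Ighm in all but the robust fit, and Cd79a in 23 of 34, being lost without B16F10 vehicle replicates 1 or 3, B16F10 IFNγ replicates 2 or 3, 6694c2 vehicle replicates 2 or 3 or 6694c2 IFNγ replicates 1 or 2. Igkc, an antibody light chain, went from 2.59 to 5.99 CPM in B16F10 and from 4.94 to 3.26 CPM in 6694c2, and Ighm from 7.52 to 12.8 and from 11.7 to 8.18 CPM. The summed markers were at 24.4 to 41.2 CPM in B16F10 with vehicle, 40.9 to 52.8 with IFNγ, 29.7 to 38.8 in 6694c2 with vehicle and 22 to 33.6 with IFNγ, and their part in the class II values was not tested.

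Ligands that act on T cells and macrophages differed in 5 of 14 cases, with Cd47 higher and 4 genes lower. Cd274, which encodes PD-L1, went from 3.39 to 97 CPM in B16F10 and from 1.09 to 65.2 CPM in 6694c2. Its difference of -1.07 ± 0.25 (adjusted p = 0.00441) was lost with limma-voom and without 6694c2 vehicle replicate 3. Nectin2, a ligand of TIGIT and DNAM-1, did not pass the threshold in B16F10 and rose from 31.6 to 52.1 CPM in 6694c2 (difference -0.85 ± 0.12, adjusted p = 2.23e-05). Lgals9 rose in both lines, by 0.24 and 0.61. Of 19 chemokine and cytokine genes, 3 were called, all of them lower. Cxcl10, which attracts T cells through CXCR3, went from 21.3 to 850 CPM in B16F10 and from 2.28 to 193 CPM in 6694c2 (difference -1.08 ± 0.20, adjusted p = 3.10e-04). Cxcl9, of the same receptor, rose in both lines by 6.86 and 7.56, to 13.8 and 33.7 CPM, without a called difference (-0.70 ± 0.85, adjusted p = 0.707). Csf1, the macrophage growth factor, differed by -0.79 ± 0.15 (adjusted p = 6.18e-04).

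Cell death genes gave 3 higher and 9 lower of 24, with 5 lower without 6694c2 vehicle replicate 2 or 6694c2 IFNγ replicate 3, with all 24 libraries and with any B16F10 vehicle library as TMM reference. Casp1, the inflammasome caspase, went from 0.595 to 11.1 CPM in 6694c2 and from 0.421 to 0.44 CPM in B16F10 (difference -4.11 ± 0.52, adjusted p = 2.18e-06), so that 6694c2 held more of both Casp1 and its substrate Gsdmd with IFNγ. Fas, a death receptor, went from 0.171 to 10.3 CPM in 6694c2 and from 0.282 to 1.08 CPM in B16F10 (difference -3.88 ± 0.66, adjusted p = 1.57e-04). Bak1, a pore protein of mitochondrial apoptosis, rose in both lines, by 0.76 and 1.52, and its inhibitor Bcl2l1 rose only in 6694c2, by 0.46 against -0.06 (difference -0.51 ± 0.08, adjusted p = 9.98e-05). Gsdme, another pore protein, fell in 6694c2 from 59.7 to 39.4 CPM (difference 0.46 ± 0.10, adjusted p = 0.00249). Mlkl, the pore protein of necroptosis, rose by 1.72 and 1.94, and Casp4 by 3.75 and 3.73, without called differences.

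Complement genes had the lowest median of all lists, -1.63 over 12 members, with 1 higher and 4 lower. C1ra, the partner protease of C1s1, went from 12.2 to 81.6 CPM in B16F10 and from 0.66 to 19.6 CPM in 6694c2 (difference -2.13 ± 0.22, adjusted p = 1.16e-07). Cfb, of the alternative pathway, rose in 6694c2 from 6.28 to 38.1 CPM and was at 0.595 and 0.723 CPM in B16F10 (difference -2.31 ± 0.37, adjusted p = 6.89e-05). The gene C2, whose product pairs with C4, was the exception. It went from 25.6 to 116 CPM in B16F10 and from 1.31 to 1.67 CPM in 6694c2 (difference 1.80 ± 0.26, adjusted p = 1.41e-05), with the 6694c2 level at 1.44% of that in B16F10. Of 14 enzymes of tryptophan, arginine and immunometabolism, 3 were called, all of them lower, and 5 with limma-voom. Ido1, which degrades tryptophan, was at 0 CPM with vehicle and 6.65 CPM with IFNγ in 6694c2, and at 0.0158 and 0 CPM in B16F10. Its called difference was lost without B16F10 vehicle replicate 1. Sat1, the enzyme that acetylates polyamines, rose only in 6694c2, by 0.54 against -0.02 (difference -0.56 ± 0.11, adjusted p = 9.43e-04).

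**Figure D4:**
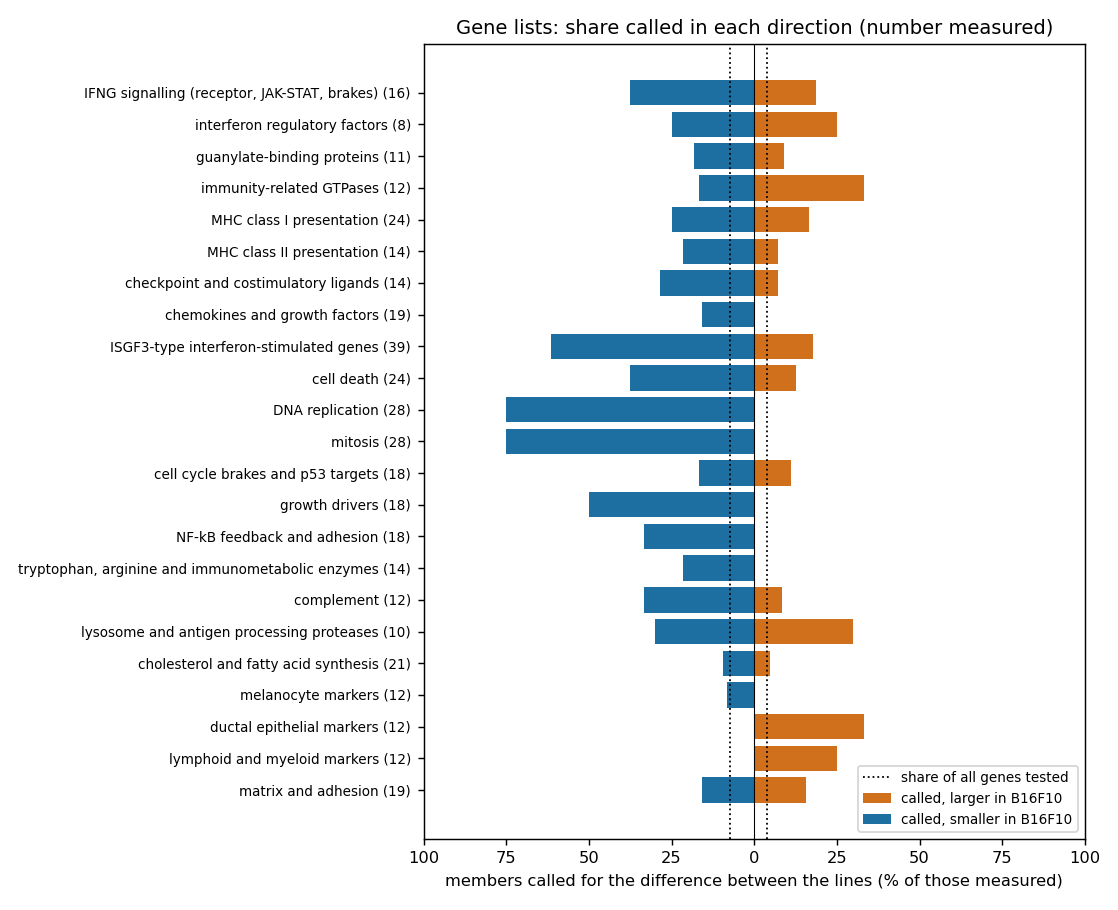
Share of the measured members of each of 23 gene lists called higher in B16F10 (right) or lower in B16F10 (left) for the difference in IFNγ effect, in percent, with the number measured beside each name and dotted lines for the share of all genes tested. The DNA replication and mitosis lists, each with 21 of 28 called lower, and the ISGF3-type list, with 24 of 39, have the longest bars to the left.

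Most genes of cell division that were measured fell in B16F10. Of 28 DNA replication genes, 24 fell and 1 rose in B16F10, against 4 that fell and 3 that rose in 6694c2, and 21 were called for the difference in effect, all of them lower. Of 28 mitosis genes, 19 fell in B16F10, 8 rose in 6694c2, and 21 were called for the difference, again all lower. Over all genes tested, 13.1% fell in B16F10, 9.23% rose in 6694c2 and 7.30% were lower for the difference. The median differences were -0.41 and -0.38 against -0.04 for all genes. They are small changes that the scaling can shift, and over 34 alternative fits the lower calls ran from 13 to 21 for replication and from 14 to 22 for mitosis. The replication count was 13 without 6694c2 IFNγ replicate 1, and the medians stayed between -0.43 and -0.33 and between -0.41 and -0.30.

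Mki67, the proliferation marker, went from 224 to 134 CPM in B16F10 and from 296 to 326 CPM in 6694c2 (difference -0.89 ± 0.11, adjusted p = 1.42e-06). It fell in B16F10 and did not pass the threshold in 6694c2. Mcm2, a subunit of the replicative helicase, went from 524 to 364 and from 369 to 405 CPM (difference -0.66 ± 0.08, adjusted p = 1.43e-06). E2f2, a transcription factor of S phase, fell by 0.73 in B16F10 and rose by 0.36 in 6694c2 (difference -1.09 ± 0.12, adjusted p = 3.24e-07). Rrm2, which makes deoxynucleotides, fell only in B16F10, from 567 to 398 CPM. Ccne2 (cyclin E2) fell in both lines, by 0.94 and by 0.44. Tpx2, Cdc20, Plk1 and Foxm1, which act in the spindle, in mitotic exit and in the G2/M program, rose in 6694c2 by 0.35, 0.23, 0.34 and 0.34, while Plk1 and Foxm1 did not pass the threshold in B16F10.

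The list of growth drivers followed the same direction, with 9 of 18 called, all lower, a median of -0.42, and 9 falls and 1 rise in B16F10. Not all of the 9 promote growth, since Spry2, Spry4 and Dusp6 are feedback inhibitors of MAP kinase signaling. Over 34 alternative fits 8 to 10 were lower and 0 to 2 higher, with 2 higher without B16F10 vehicle replicate 3 and 1 without B16F10 IFNγ replicate 1 or 6694c2 vehicle replicate 1. Myc went from 32.1 to 18.3 CPM in B16F10 and from 118 to 137 CPM in 6694c2 (difference -1.02 ± 0.12, adjusted p = 3.93e-07). Ccnd1, the cyclin that drives the entry into S phase, fell from 346 to 243 CPM in B16F10 and rose from 794 to 982 CPM in 6694c2 (difference -0.81 ± 0.10, adjusted p = 1.33e-06). Ccnd2 also fell by 0.26 in B16F10 and rose by 0.28 in 6694c2. Spry2, Spry4, Etv4 and Etv5, transcripts that depend on MAP kinase signaling, fell in B16F10 by 0.80, 1.57, 1.37 and 1.10 on the log2 scale. In 6694c2 Spry2 fell by 0.27 and the other 3 did not pass the threshold. Dusp6, another such transcript of the list, went the other way, up 1.46-fold in B16F10 and 1.8-fold in 6694c2. Its difference of -0.31 (edgeR adjusted p = 0.0117) was called in 28 of 34 alternative fits. It was lost without B16F10 IFNγ replicate 3, 6694c2 vehicle replicate 3 or any 1 of the 6694c2 IFNγ replicates. The brakes of the cycle and the targets of p53 gave 2 higher and 3 lower of 18, with 4 higher without 6694c2 vehicle replicate 3 or with filterByExpr. Cdkn1a (p21), at 549 and 485 CPM in B16F10 and 21.5 and 21.8 CPM in 6694c2, had no called difference (-0.20 ± 0.09, adjusted p = 0.181). Gadd45a, a stress-induced brake, rose in B16F10 from 20.5 to 29.1 CPM and fell in 6694c2 from 16.6 to 10.8 CPM (difference 1.13 ± 0.14, adjusted p = 2.35e-06). Trp53 fell in B16F10 by 0.31 (difference -0.44 ± 0.09, adjusted p = 9.38e-04).

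**Figure D5:**
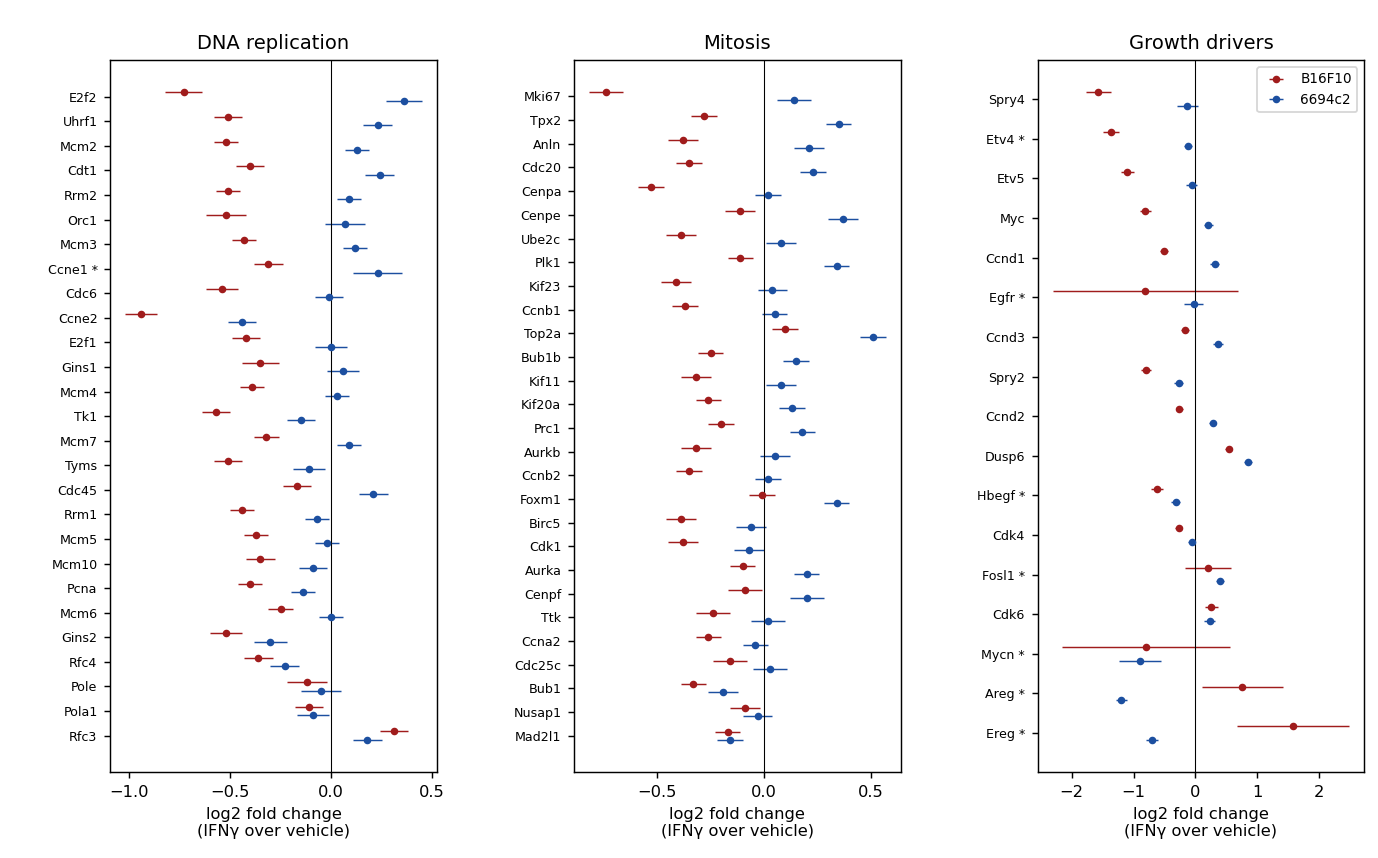
Log2 fold change of IFNγ over vehicle in each line for most of the listed genes of DNA replication, mitosis and growth control, with bars for the SE from 3 libraries per group and an asterisk on line-restricted genes. B16F10 points lie to the left of the 6694c2 points for most genes, and those of Mki67, Myc and Etv5 are among the farthest apart.

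Opposite effects, called in each line and for the difference, were found for 232 genes, 196 of them not line-restricted. Of these 196, 50 rose in B16F10 and fell in 6694c2 and 146 did the reverse. The second count was 97 with B16F10 vehicle replicate 2 as the scaling reference and 74 without 6694c2 vehicle replicate 3, 75 without 6694c2 IFNγ replicate 3, 85 without 6694c2 vehicle replicate 2, 88 without 6694c2 IFNγ replicate 1 and 92 without 6694c2 IFNγ replicate 2. The first was 81 without 6694c2 vehicle replicate 1. The members with the largest effects in both lines were mostly lowly expressed.

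Plscr4, a phospholipid scramblase, went from 9.68, 9.61 and 11.1 up to 15.7, 18.1 and 14.9 CPM in B16F10 and from 24.6, 23.3 and 25.2 down to 15.9, 14.1 and 14.4 CPM in 6694c2. The lines differed with vehicle and overlapped with IFNγ (difference in effect 1.39 ± 0.14, adjusted p = 4.60e-08). Ahrr, the repressor of Ahr, went from 0.854, 1.8 and 1.28 to 2.82, 2.26 and 2.78 CPM in B16F10 and from 0.629, 0.33 and 0.599 to 0.0555, 0.122 and 0.204 CPM in 6694c2 (difference 2.83 ± 0.64, adjusted p = 0.00308). It rose in B16F10, as did Ahr. Lifr, the receptor chain for leukemia inhibitory factor, went from 1.94, 2 and 1.88 to 3.43, 3.09 and 3.38 CPM in B16F10 and from 1.03, 1.54 and 1.2 to 0.0555, 0.912 and 0.442 CPM in 6694c2 (difference 2.22 ± 0.49, adjusted p = 0.00274). Mycl, a member of the Myc family, had 0 reads in the B16F10 vehicle libraries and 13 in the IFNγ libraries, at least 4.2-fold higher at a floor of 3 reads over the group, and 68 and 23 reads in 6694c2. Its call was lost without B16F10 IFNγ replicate 1.

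In the reverse direction, Raph1, a regulator of actin at the cell edge, went from 25.1, 26.7 and 27 down to 19.2, 16.2 and 18.1 CPM in B16F10 and from 48.4, 39.3 and 42.3 up to 107, 120 and 112 CPM in 6694c2. All 4 groups were apart (difference -1.94 ± 0.12, adjusted p = 2.75e-12). Cebpd, an acute-phase transcription factor, went from 5.08, 3.64 and 4.21 to 1.62, 1.8 and 2.91 CPM in B16F10 and from 0.8, 0.769 and 0.899 to 2.5, 2.13 and 2.65 CPM in 6694c2. The lines were apart with vehicle and overlapped with IFNγ (difference -2.60 ± 0.36, adjusted p = 8.94e-06). Rgs14, a regulator of G-protein signaling, Prss12, a serine protease, and Gm38399 differed by -1.55 ± 0.31, -1.44 ± 0.22 and -1.58 ± 0.31, each at levels of 0.659 to 10 CPM.

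The remaining lists concerned metabolism, lysosomes, inflammation, matrix and lineage. Of 21 genes of cholesterol and fatty acid synthesis, 1 was higher and 2 lower, with Idi1, of the isoprenoid pathway, at 0.71 ± 0.11 (adjusted p = 2.24e-05). These are 4.76 and 9.52% of the list, near the 4.01 and 7.30% of all genes tested. The balance of these few calls changed with the scaling and with single libraries, from 1 to 5 higher and from 0 to 2 lower over 34 alternative fits. It was 5 higher and 1 lower without 6694c2 vehicle replicate 1, and 3 higher and 0 lower without either of the other 6694c2 vehicle replicates or any 1 of the 6694c2 IFNγ replicates. The lower count was 0 without B16F10 vehicle replicate 3 and 1 without B16F10 vehicle replicate 2, and there were 2 higher and 1 lower without B16F10 IFNγ replicate 3. Of 10 lysosomal genes, 3 were higher and 3 lower. Ctsh, a cathepsin, rose in B16F10 from 28.5 to 43.7 CPM and fell in 6694c2 from 72.6 to 50.2 CPM (difference 1.14 ± 0.10, adjusted p = 3.75e-09). Of 18 genes of NF-kB feedback and adhesion, 6 were called, all of them lower, with Nfkb2 at -0.63 ± 0.10 (adjusted p = 3.26e-05) and Rela, the p65 subunit, at -0.48 ± 0.08 (adjusted p = 1.81e-04). Both were called in every alternative fit, but the count of the list was 2 without B16F10 vehicle replicate 2 and 3 without B16F10 vehicle replicate 1, B16F10 IFNγ replicate 1, 6694c2 vehicle replicates 2 or 3 or 6694c2 IFNγ replicate 3. Scaling by library size alone also gave 3 lower, and 1 member was higher without B16F10 vehicle replicate 3 or 6694c2 vehicle replicate 1. Of 19 matrix genes, 3 were higher and 3 lower. Fn1 (fibronectin) rose in B16F10 from 52.6 to 104 CPM and fell in 6694c2 from 87 to 68 CPM (difference 1.33 ± 0.14, adjusted p = 9.01e-08). Among the lineage markers, 1 of 12 melanocyte genes was lower and 4 of 12 ductal genes were higher, all of them line-restricted, so the level in the other line was low. The melanocyte share of 8.33% lower was near the 7.30% of all genes tested, and the ductal share was 33.3% higher, against 4.01%. The melanocyte call, Slc45a2, held in 12 of 34 alternative fits and was lost in those without B16F10 vehicle replicates 2 or 3, any 1 B16F10 IFNγ or 6694c2 vehicle replicate, or 6694c2 IFNγ replicates 1 or 2, while 5 melanocyte genes were lower without 6694c2 IFNγ replicate 3. The ductal count was 2 without B16F10 vehicle replicate 1 or B16F10 IFNγ replicate 2, 2 with a robust fit and 1 with limma-voom. Muc1, an epithelial mucin, was the only one of these that rose in both lines, from 0.142 to 1.07 CPM in B16F10 and from 9.47 to 14.1 CPM in 6694c2 (difference 2.28 ± 0.47, adjusted p = 0.00143).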

How the data were processed

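Bulk RNA-seq of B16F10 and 6694c2 cells was analysed from 12 libraries of 4 groups, assigned by their labels. The authors trimmed reads with cutadapt, aligned them with STAR, used Rsubread for gene counts, which were deposited raw. The submitters' notes list the mm10 build, which the paper names for its single-cell reads. The build of the bulk counts, strandedness and the treatment of multi-mapping reads are not given in the sources used here. Overlapping, antisense and near-identical genes are therefore uncertain. The study's other samples were used in no comparison.

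Genes with at least 10 reads over the 12 libraries were fitted together with 4 group means, after TMM normalization, by edgeR 4.0.16 in R 4.3.3 (quasi-likelihood test, Benjamini-Hochberg adjustment over 18974 genes, threshold 0.05). Each SE is the log2 difference over the square root of F. CPM values are TMM-scaled. Genes were called line-restricted when the mean of the 2 group means in one line was over 10 times that of the other. An exact test of 3 libraries against 3 cannot go below p = 0.1, so single genes have no permutation test. Alternatives used limma 3.58.1 (voom with group weights), DESeq2 1.42.0, other scalings, edgeR's filterByExpr or no filter on low counts, an edgeR fit with robust estimates of dispersion, a replicate block, a fit over all 24 bulk libraries of both lines and fits without each library. The code was tested on simulated data.

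Named genes were the 12 called genes of smallest p for either direction, beyond 1 on the log2 scale, not line-restricted and with at least 1 CPM in a group, the 6 in each direction with the largest opposite effects, and members of 23 lists. Some genes that this rule names are not reported here. In each list, those described stand for its roles or have the smallest p. The comparison, lists and members were chosen with earlier results of these data known. Coordinates are on GRCm38, and promoter sequences are from RefSeq.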

Additional observations from a re-analysis of the deposited data

Results flagged for a closer look

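A test of the difference itself set apart 2146 genes whose IFNγ effect differed between the lines (edgeR, adjusted p under 0.05), and 196 genes outside the line-restricted ones whose effects were called with opposite signs. In log2 difference of the effect, B16F10 minus 6694c2, the genes with the smallest p that were higher in B16F10 included 9930111J21Rik2 at 5.92, Ifi211 at 2.68, Gsdmd at 2.66, Ifi204 at 2.65, Tcf7 at 2.43, Isg20 at 2.38, Socs3 at 2.20, Mras at 2.11, Rnf135 at 1.91, Ahr at 1.90, Trafd1 at 1.73 and Cd47 at 1.39. Those lower in B16F10 included C1s1 at -6.00, Tubb3 at -4.19, Xaf1 at -4.10, Rtp4 at -3.65, Ifi27 at -3.03, Irf9 at -2.64, Slco3a1 at -2.57, Bst2 at -2.38, Parp12 at -1.95, Wars at -1.71 and Samhd1 at -1.41.

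Of the genes with opposite effects, those that rose in B16F10 and fell in 6694c2 included Mycl at 6.83, Ahrr at 2.83, Lifr at 2.22 and Plscr4 at 1.39, together with Tcf7 above. Those that fell in B16F10 and rose in 6694c2 included Cebpd at -2.60, Raph1 at -1.94, Cish at -1.84, Gm38399 at -1.58, Rgs14 at -1.55 and Prss12 at -1.44. The value of Mycl rests on a B16F10 vehicle group without reads and is no bound. No group had enough libraries for a test of single outlying libraries.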

How the results depend on the processing

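Of 5508 gene values over 34 alternative fits, 5231 kept their direction and side of the threshold, 217 fell short of it, 42 newly passed it and no called value changed sign. The other 18 values, among them those of Gbp2, Cxcl9, Igtp, Tap2, H2-D1 and Ifit3, changed sign and were not called in either fit. Of 162 genes, 111 were called in every fit, among them the 24 with the smallest p. The fit with 6694c2 IFNγ replicate 2 as TMM reference is among the 34 and repeats the main fit, which uses that library. With filterByExpr, 1157 genes were higher, 1017 without line-restricted genes, and opposite effects that rose in B16F10 numbered 113 and 83. Opposite effects that fell in B16F10 numbered 97, without line-restricted genes, both with all 24 libraries and with B16F10 vehicle replicate 2 as TMM reference.

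Fits without 1 library gave 1684 to 2238 genes, 591 to 1096 higher and 812 to 1256 lower, of which 378 to 427 were beyond 1 on the log2 scale. Without line-restricted genes they gave 1463 to 1989, 496 to 960 higher and 706 to 1152 lower. The lower count was 916 without 6694c2 vehicle replicate 2, 842 without replicate 3, and 812 without 6694c2 IFNγ replicate 3. Without line-restricted genes it was also 830 without 6694c2 IFNγ replicate 1. B16F10 gave 3481 to 4660 and 6694c2 2305 to 3438. Opposite effects ran from 155 to 249, 58 to 108 higher and 81 to 144 lower, and without line-restricted genes from 122 to 213, 40 to 81 higher and 74 to 134 lower. The cause was not tested.

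Whether the replicate numbers pair the libraries was not settled. Same-numbered libraries correlated in their deviations at 0.129, 0.0776 and -0.00462 in B16F10 and at -0.141, -0.127 and -0.000303 in 6694c2. Vehicle and IFNγ libraries of different numbers correlated at -0.155 to 0.101 in B16F10 and at -0.0781 to 0.192 in 6694c2. The B16F10 value of 0.129 for replicate 1 was above the B16F10 range, so a pairing there was neither shown nor excluded. A replicate block over the 4 groups gave 719 higher and 1312 lower, and a block within each line 687 and 1190.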
